A study of Mus musculus with 4 samples.

Results

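Long noncoding RNAs are transcripts that are spliced, capped or processed like mRNAs but act, where a function is known, as RNA. The set described here was given by name and holds 6 transcripts: Malat1, Neat1, Kcnq1ot1, Miat, Snhg11 and Gas5. They were taken from the 31017 gene rows of 4 tables of RNA sequencing counts by their symbols. Of the 6, 5 were found and 4 had at least 1 count, and Gas5 was not analysed here. The libraries came from beta cells, the insulin-secreting cells of the pancreatic islet, of wild type C57BL/6J male mice aged 10 weeks. The islets had been cultured overnight and dissociated, and the cells were sorted by flow cytometry on CD63, a tetraspanin found in late endosomes and lysosomes. The study has 2 CD63 high and 2 CD63 low libraries. The labels name no animal, pool or sort behind a library, so a p-value here speaks of the spread among 4 libraries, which may be technical.

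Total counts were 30436845 and 29249270 in the CD63 high samples (replicates 1 and 2), and 32953539 and 35003307 in the CD63 low samples (replicates 1 and 2). Cd63, on which the cells were sorted, stood at 2025 ± 72.8 CPM (counts scaled to a common library total with TMM, edgeR's factor between libraries) in CD63 high cells and 1153 ± 46.8 in CD63 low cells (mean ± SD, n = 2 each). All 10 beta cell markers listed were detected in each library, with summed levels of 551300 and 587200 CPM in the CD63 high samples, and 622100 and 537700 CPM in CD63 low replicates (summed levels are per total count). Of the 10, 3 fell in CD63 high cells, the glucose transporter Slc2a2 (log2 fold change -1.51), the transcription factor Mafa (-1.06) and the zinc transporter Slc30a8 (-1.36). Marker transcripts of other cells moved with the sort. The summed level of 13 macrophage markers was 153 and 514 CPM in the CD63 high samples, against 22.3 and 41.1 CPM in the CD63 low samples; each of the 13 had at least 1 count in each library. Summed alpha cell markers were 6063 and 6380 CPM in the CD63 high samples, against 1016 and 1151 CPM in the CD63 low samples, delta cell markers 466 and 842 against 67.6 and 48.7 CPM, and gamma cell markers 2403 and 3894 against 515 and 310.0 CPM. Most of the alpha cell sum was glucagon, Gcg, at 4985 and 5643 CPM in the CD63 high samples, against 179 and 287 CPM in the CD63 low samples, while Slc7a2 and Dpp4 of that list had log2 fold changes of -0.87 and -0.74. Of the tested markers, 11 of 13 rose for macrophages, 2 of 9 for alpha, 3 of 3 for delta, 3 of 3 for gamma, 4 of 14 for acinar and 1 of 5 for duct cells, and edgeR called none of 4 endothelial, 3 stellate and 2 neural ones. In bulk RNA, a change in the number of cells of a type and a change in the RNA each cell holds cannot be told apart.

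Malat1 and Neat1 are neighbours in the genome and stay in the nucleus. Malat1 gathers in nuclear speckles, where splicing factors are stored, and Neat1 is the RNA scaffold of paraspeckles, nuclear bodies that hold RNA-binding proteins such as Sfpq and Nono. Neat1 is made as a short polyadenylated form and as a long form, and it is the long form that builds paraspeckles. Kcnq1ot1 is transcribed from the paternal chromosome, antisense to Kcnq1, and silences neighbouring genes on that chromosome. Miat, also called Gomafu, is a nuclear RNA known from neurons. Snhg11 and Gas5 are host transcripts whose introns carry small nucleolar RNAs, the guides of RNA modification.

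Malat1 lies on chromosome 19 from 5795690 to 5802672 (mm10, minus strand), as 1 continuous exonic stretch of 6983 bases. Neat1 lies 22035 bases away on the same strand, from 5824708 to 5845478, as 1 stretch of 20771 bases. No other gene of the tables overlapped either. The 3′ ends of the long transcripts carry the same kind of element, a pair of T-rich runs followed by an A-rich run. In the RNA these are known to fold into a triple helix that protects the end in place of a poly(A) tail. These stretches are shown because the libraries were made from polyA RNA and the genome itself encodes A bases in them. They were read from the GENCODE M21 transcripts (GRCm38), and capitals mark the runs.
Neat1 long transcript, chr19:5824708-5824817, minus strand: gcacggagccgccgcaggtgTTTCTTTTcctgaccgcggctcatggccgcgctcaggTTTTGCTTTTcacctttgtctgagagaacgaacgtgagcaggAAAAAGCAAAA
Malat1, chr19:5795982-5796091, minus strand: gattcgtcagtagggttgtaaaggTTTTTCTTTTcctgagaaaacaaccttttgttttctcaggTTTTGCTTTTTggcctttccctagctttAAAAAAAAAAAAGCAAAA
Neat1 short transcript, chr19:5842307-5842366, minus strand, with AATAAA in capitals: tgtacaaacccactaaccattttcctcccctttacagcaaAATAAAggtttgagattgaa

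The element was searched in the transcript sequence as 2 T-rich runs followed by an A-rich run within 110 bases. A T-rich run was at least 3 T, a C or GC, and at least 3 T, and an A-rich run was at least 3 A, then GC, then at least 3 A. It was found in 3 of 18950 long noncoding RNA transcripts of GENCODE M21 (0.0158%), 1 each of Neat1, Malat1 and Gm47087. In the long Neat1 transcript the A-rich run was the last sequence of the transcript, and an annotated small RNA of 56 bases, Gm27702, began at the next base. In Malat1 the annotation ran on for 292 bases after the run. The short Neat1 transcript, of 3004 bases, had the polyadenylation signal AATAAA within its last 60 bases, as did 29.9% of the long noncoding RNA transcripts. A count per gene adds up reads of all 4 annotated Neat1 transcripts, so the short and the long form cannot be told apart in these tables.

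**Figure D1:**
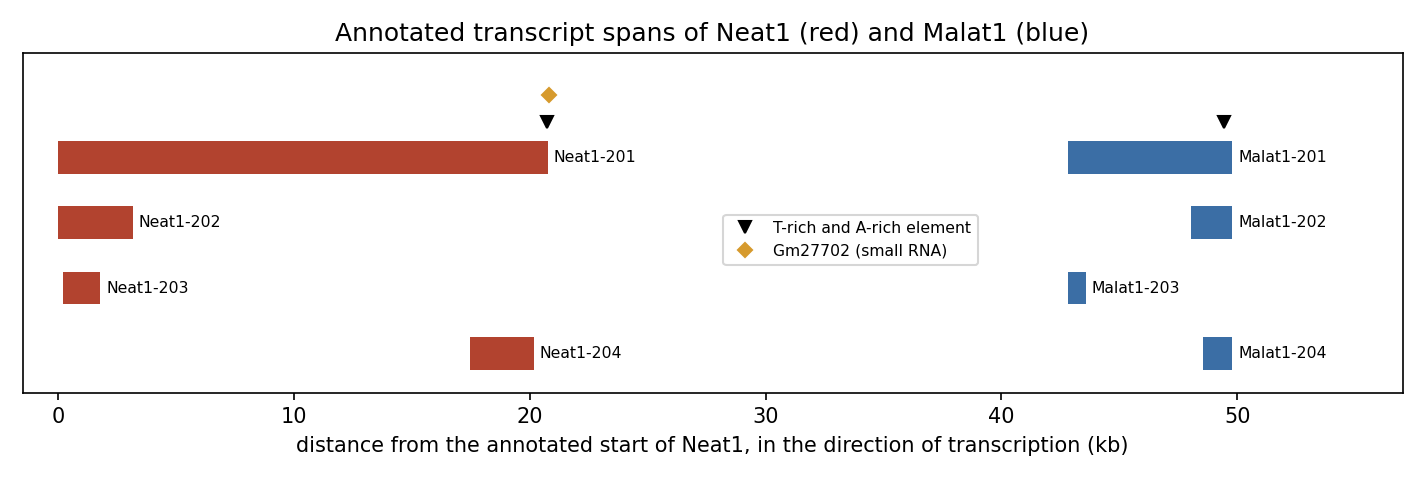
Annotated GENCODE M21 transcripts of Neat1 (4, red) and Malat1 (4, blue), drawn from first to last base with introns included, by distance in kb from the annotated start of Neat1 in the direction of transcription. Triangles mark the T-rich and A-rich elements and the diamond marks Gm27702; the gap between the genes is 22035 bases.

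Malat1 was the most counted of the described transcripts in each library. It had 43534 and 33176 counts in the CD63 high samples (replicates 1 and 2), and 27084 and 23471 counts in the CD63 low samples (replicates 1 and 2). Scaled by TMM these were 1389 and 1198 CPM in the CD63 high samples, against 892 and 602 CPM in the CD63 low samples. Both CD63 high libraries lay above both CD63 low libraries, as for 23.8% of all 13241 genes tested, while 46.0% did not overlap in either direction. The mean was 1293 ± 135 CPM in CD63 high cells and 747 ± 205 CPM in CD63 low cells (SD, n = 2 each), a log2 fold change of 0.79 (SE 0.23). The quasi-likelihood test of edgeR, adjusted by Benjamini-Hochberg over all genes, gave an adjusted p of 0.106, so Malat1 did not pass the threshold of 0.05. It did pass with the Wald test of DESeq2 (adjusted p 0.0106), and in edgeR with no filter on low counts (0.00193) or without CD63 low replicate 1 (0.00527).

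Neat1 rose in CD63 high cells. It had 5820 and 3248 counts in the CD63 high samples (replicates 1 and 2), against 1802 and 2797 counts in the CD63 low samples (replicates 1 and 2). The scaled levels were 186 and 117 CPM in the CD63 high samples, and 59.4 and 71.8 CPM in the CD63 low samples. The groups did not overlap, and the CD63 high libraries differed more from each other than the CD63 low libraries did. The mean was 151.5 ± 48.4 CPM in CD63 high cells and 65.6 ± 8.78 CPM in CD63 low cells (SD, n = 2 each), which was 2.31-fold higher (log2 fold change 1.21, SE 0.25, edgeR adjusted p 0.0273).

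The call of Neat1 rested on CD63 high replicate 1. Without that library the log2 fold change was 0.84 (SE 0.32) and the edgeR adjusted p 0.148, and with library size as the only scaling they were 1.17 (SE 0.32) and 0.184. Macrophage markers were highest in CD63 high replicate 2 (514 CPM summed, against 153 CPM in replicate 1), while Neat1 was highest in replicate 1. Summed acinar markers were 1051 and 1584 CPM in the CD63 high samples, against 27.9 and 446 CPM in the CD63 low samples, and summed duct markers were 2827 and 1501 against 830 and 953 CPM. The duct markers did not move as a group. Of 5 tested, 1 rose and 3 were above 0, with log2 fold changes from -0.22 to 3.57 and a median of 0.19. The part of these cells in the Neat1 level was not tested.

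**Figure D2:**
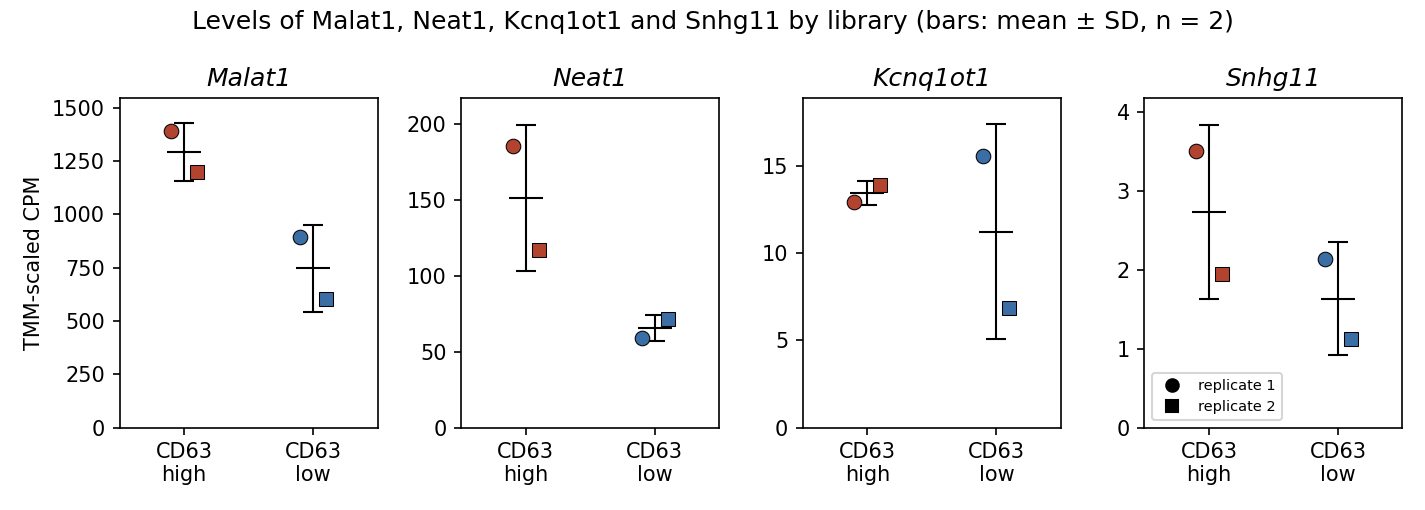
TMM-scaled CPM of Malat1, Neat1, Kcnq1ot1 and Snhg11 in each library, CD63 high left and CD63 low right, with the mean ± SD (n = 2) as bars and an own axis from 0 for each gene. The groups are apart for Malat1 and Neat1 and overlap for Kcnq1ot1 and Snhg11.

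Of the 4 transcripts tested, 1 rose and none fell, beside 2.5% of all tested genes that rose and 0.287% that fell (2.79% together). Their median log2 fold change was 0.77, beside -0.01 over all genes tested, and the values ran between 0.26 and 1.21. At an unadjusted p under 0.05, 2 of the 4 were higher in edgeR, for which the share of all genes is not given here. DESeq2 called 2 of them higher, Neat1 and Malat1, beside 534 higher of all 13241 genes tested. Limma-voom called Neat1 alone, beside 247 higher of all genes tested. Neat1's log2 fold change lay at the 92.4th percentile of all tested genes and that of Malat1 at the 88.9th.

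Within a library, the ratio of both nuclear RNAs does not depend on the scaling. Neat1 counts were 13.4% and 9.79% of Malat1 counts in the CD63 high samples (replicates 1 and 2), and 6.65% and 11.9% in the CD63 low samples (replicates 1 and 2). The ratios overlapped between the groups. The log2 ratio averaged -3.13 in CD63 high and -3.49 in CD63 low cells, a difference of 0.36 (SE 0.48), with an exact two-sided permutation p of 0.667, and 2 against 2 libraries cannot give a p below 0.333. For Kcnq1ot1 and Snhg11 over Malat1 the differences were -0.44 (SE 0.35) and -0.07 (SE 0.36), with exact permutation p of 0.667 and 1.0. Adjusted over the 3 ratios by Benjamini-Hochberg, each exact permutation p was 1.0.

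Levels of different genes were compared per length, as TPM, counts divided by the deposited exonic length and scaled to the same sum in each library. Malat1 stood at 326 and 248 TPM in the CD63 high samples, and 181 and 161 TPM in the CD63 low samples, at ranks 94, 131, 163 and 237 among all genes. Neat1 followed with 14.7 and 8.18 TPM in the CD63 high samples, and 4.05 and 6.46 TPM in the CD63 low samples. These values divide by the 20771 bases of the long form. If all reads came from the 3004 bases of the short transcript, they would be 101 and 56.5 TPM in the CD63 high samples, and 28.0 and 44.6 TPM in the CD63 low samples, still below Malat1 in each library. Snhg11 had 0.503 ± 0.243 TPM in CD63 high cells and 0.302 ± 0.0766 TPM in CD63 low cells, and Kcnq1ot1 had 0.2225 ± 0.00803 TPM in CD63 high cells and 0.1875 ± 0.0700 TPM in CD63 low cells (mean ± SD, n = 2 each). The order Malat1, Neat1, Snhg11, Kcnq1ot1 held in each of the 4 libraries. Snhg11 and Kcnq1ot1 were within their spread of each other in CD63 low cells.

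The word abundant thus fitted Malat1 at any scale and Neat1 by counts. Among 7980 long noncoding RNA genes of GENCODE M21 in the tables, Malat1 had the most counts in each library and took 28.4% and 29.7% of their counts in CD63 high, against 21.9% and 20.1% in the CD63 low samples. Per length it ranked between 1 and 3, next to Gm26917 and Gm42418, which are known to overlap ribosomal RNA sequence. Gm26917 had 24593 and 7069 counts in the CD63 high samples, and 16838 and 16527 counts in the CD63 low samples. Neat1 ranked between 4 and 6 of these genes by count and between 32 and 131 per length. Kcnq1ot1 ranked between 904 and 1144 per length. Snhg11 is typed protein_coding in GENCODE M21 and so stands outside this class, although it is known as a noncoding host gene.

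Among the long noncoding RNA genes, 773 were tested and 7 were called, of which 6 rose and 1 fell. Over all 13241 genes tested, 369 were called (2.79%), of which 331 rose and 38 fell. Many of the 773 had few counts, and the shares called were not compared at a like level. The median log2 fold change of the 773 was 0.07. Of the 7 called, Neat1 had the most counts in each library. Per length Gm27168 was higher, with 125 and 114 TPM in the CD63 high samples, and 31.1 and 53.5 TPM in the CD63 low samples. Gm27168 had the smallest adjusted p, with 862 and 787 counts in the CD63 high samples, and 241 and 403 counts in CD63 low replicates (log2 fold change 1.61, SE 0.25, edgeR adjusted p 0.00711). Gm5860 (1.11), 1200007C13Rik (2.64), 5330439M10Rik (1.95) and Gm14221 rose as well, the last with 18 and 26 counts in CD63 high and none in the CD63 low samples. Gm5464 fell, with 1 and 2 counts in the CD63 high samples, and 53 and 34 counts in the CD63 low samples. The libraries carry no strand, so reads of a gene on the other strand cannot be told apart from these.

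**Figure D3:**
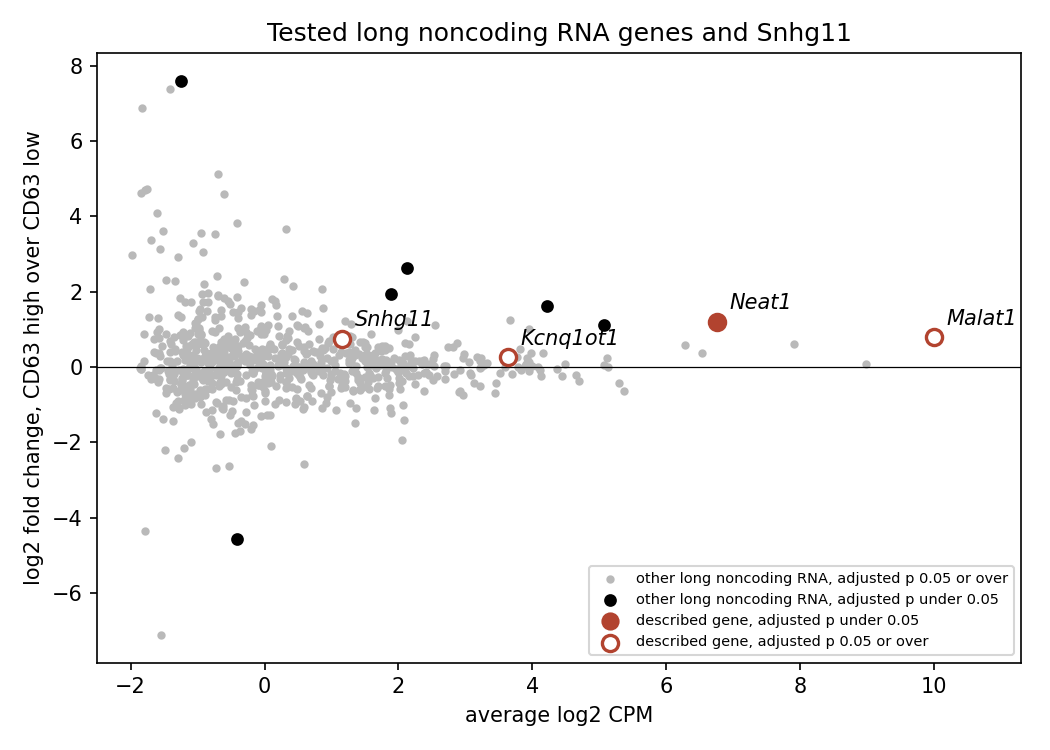
Log2 fold change of CD63 high over CD63 low against average log2 CPM for the 773 tested long noncoding RNA genes and Snhg11, with adjusted p from edgeR. Malat1 and Neat1 lie at the right, at 0.79 and 1.21, above most genes of similar level; Kcnq1ot1 (0.26) and Snhg11 (0.75) lie within the cloud.

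The genes of partner proteins of the nuclear bodies, measured as RNA, did not pass the test. Of 30 genes of paraspeckle proteins tested, edgeR called none in either direction, beside 2.79% of all tested genes. At that share, no call in a list of this size or smaller says little about the list. Of the 30 log2 fold changes 8 were above 0, beside 48.6% over all tested genes, with a median of -0.12. With the trend by gene length removed, 13 were above 0, and leaving out 1 library gave 7 to 12. At an unadjusted p under 0.05, 1 was higher and 1 lower, and neither DESeq2 nor limma-voom called any. Sfpq and Nono, which bind Neat1 and are needed for paraspeckles, had log2 fold changes of 0.05 (SE 0.21) and -0.12 (SE 0.20). Sfpq stood at 31.6 and 29.9 CPM in the CD63 high samples, and 29.9 and 29.4 CPM in the CD63 low samples. Of 30 genes of nuclear speckle and splicing proteins tested, edgeR, DESeq2 and limma-voom called none. None had an unadjusted p under 0.05 in edgeR, and the log2 fold changes ran from -0.28 to 0.56. Of these 22 were above 0, but 14 without CD63 high replicate 1 and 15 without CD63 low replicate 2. Frmd8os begins 145 bases from the Neat1 start on the other strand and had 15 and 9 counts in the CD63 high samples, against 8 and 4 counts in the CD63 low samples. Frmd8, next to it, had a log2 fold change of -0.11 (edgeR adjusted p 0.926), and Ltbp3, on the side of Malat1, of 0.02 (0.992).

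The start region of Malat1 is shown because this gene has the highest level of the set. The sequence is from RefSeq (GRCm38.p6), from 250 bases before to 50 bases after the annotated start, and capitals mark TGACGT on either strand, the core of the binding site of cyclic AMP response factors.
Malat1 promoter, chr19:5802623-5802922, minus strand: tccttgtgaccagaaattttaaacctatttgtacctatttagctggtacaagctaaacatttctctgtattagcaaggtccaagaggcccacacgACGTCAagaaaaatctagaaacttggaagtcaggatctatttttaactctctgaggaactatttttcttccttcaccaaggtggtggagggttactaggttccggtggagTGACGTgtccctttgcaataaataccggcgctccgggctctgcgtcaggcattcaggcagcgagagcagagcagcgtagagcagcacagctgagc
TGACGT was found 2 times, once on each strand, and 1 of the matches overlapped the letters ACGTG. Of 32851 promoters of this length, 7.51% held TGACGT on either strand. The TATA box letters TATAAA, the letters GGGCGG bound by Sp1, the E-box CACGTG, the AP-1 letters TGACTCA, the NF-Y letters CCAAT and the letters GCGTG were searched on both strands and were not in this window. A match is a description and no evidence of binding. No promoter of Neat1 is given.

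Kcnq1ot1 lies on chromosome 7 from 143203458 to 143296549 (mm10, minus strand), annotated as 1 unspliced transcript of 93092 bases within the span of Kcnq1, nearly all of it intronic. Its start lies in the control region of the imprinted domain. The sequence there is shown with CCAAT, the letters bound by NF-Y, in capitals.
Kcnq1ot1 promoter (RefSeq, GRCm38.p6), chr7:143296498-143296797, minus strand: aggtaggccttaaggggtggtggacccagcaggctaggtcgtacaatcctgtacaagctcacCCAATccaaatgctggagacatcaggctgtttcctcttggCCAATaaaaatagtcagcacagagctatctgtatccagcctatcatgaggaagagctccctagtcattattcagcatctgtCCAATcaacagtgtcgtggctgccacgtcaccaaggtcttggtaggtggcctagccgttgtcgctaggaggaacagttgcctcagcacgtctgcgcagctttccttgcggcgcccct
CCAAT was found 3 times on the strand shown and was not found on the other. TGACGT, marked above for Malat1, was found 1 time here and ACGTG 2 times, on the other strand and not in capitals. At least 1 CCAAT on either strand was held by 37.4% of all promoters of this length and at least 3 by 3.37%.

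Kcnq1ot1 had 406 and 386 counts in the CD63 high samples, and 473 and 268 counts in the CD63 low samples (replicates 1 and 2). The scaled levels were 12.95 and 13.9 CPM in the CD63 high samples, and 15.6 and 6.88 CPM in the CD63 low samples. CD63 low replicate 1 was the highest of the 4 and CD63 low replicate 2 the lowest, so the groups overlapped. The log2 fold change was 0.26 (SE 0.36, edgeR adjusted p 0.815). It was 0.96 without CD63 low replicate 1 and -0.20 without CD63 low replicate 2. The share of counts from mitochondrial genes was also highest in CD63 low replicate 1 and lowest in CD63 low replicate 2. It was 0.323% and 0.338% in the CD63 high samples, and 0.417% and 0.245% in the CD63 low samples. The part of this share in the Kcnq1ot1 level was not tested.

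Few bases of Kcnq1ot1, 121, lie in annotated exons of Kcnq1. The counting used no strand, so unspliced Kcnq1 RNA from the introns cannot be told apart from Kcnq1ot1. The exons of Kcnq1, a potassium channel gene, had 0 and 4 counts in the CD63 high samples, and 20 and 0 counts in the CD63 low samples. Of the genes that Kcnq1ot1 is known to silence in mouse tissues, Cdkn1c and Phlda2 had few counts. Cdkn1c, a cell cycle inhibitor, had 10 and 0 counts in the CD63 high samples, and 3 and 5 counts in the CD63 low samples. Phlda2, a regulator of placental growth, had 0 and 3 counts in the CD63 high samples, and 3 and 2 counts in the CD63 low samples. These 3 genes were below the filter on low counts and were not tested. Other genes of the domain had more counts, such as the tetraspanin gene Cd81, with 43.6 and 83.5 CPM in the CD63 high samples, and 107 and 74.6 CPM in the CD63 low samples.

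Of 22 genes listed for the Kcnq1 domain and the H19 domain beside it, 15 were tested and edgeR called none, with 6 of 15 above 0 and a median log2 fold change of -0.06. At an unadjusted p under 0.05, 1 was higher and 3 were lower. DESeq2 called 1 higher and 3 lower, beside 534 higher and 152 lower of all 13241 genes tested. Limma-voom called 1 lower, beside 247 higher and 37 lower of all genes tested. The share of all genes at the unadjusted p is not given here. The tumour necrosis factor receptor family gene Tnfrsf23 stood at 1.19 (SE 0.30, edgeR adjusted p 0.062). Tyrosine hydroxylase Th stood at -1.11 (SE 0.27, edgeR adjusted p 0.055) and the lipid transfer gene Osbpl5 at -1.17 (SE 0.30, 0.0699). Trpm5, a cation channel gene of beta cells that lies 108816 bases from Kcnq1ot1, stood at -0.98 (SE 0.29, 0.113). The nearest genes, Gm28821 and 4933417O13Rik, had no count.

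Miat lies on chromosome 5 from 112213228 to 112229395 (mm10, minus strand) and had no count in any of the 4 libraries. A count of 0 allows up to 3 counts, which is 0.0986 and 0.103 CPM in the CD63 high samples, and 0.091 and 0.0857 CPM in the CD63 low samples. These limits are per total count, without TMM, and cover counting error only. Gm26953 on the opposite strand shares 2260 of the 9293 exonic bases of Miat, where reads that fall in both genes are left out, and it had no count either. Of the nearest genes on each side, 1700028D13Rik and 1700016B01Rik had no count. The crystallin gene Cryba4 had 7 and 3 counts in the CD63 high samples, and 13 and 9 counts in the CD63 low samples, and was below the filter. Crybb1 was tested and not called (log2 fold change -1.06, edgeR adjusted p 0.381).

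Snhg11 lies on chromosome 2 from 158375638 to 158386145 (mm10, plus strand), and 2 small nucleolar RNAs, Gm25187 and Gm25129, are annotated within its span. Snhg11 had 110 and 54 counts in the CD63 high samples, and 65 and 44 counts in the CD63 low samples. The scaled levels were 3.51 and 1.95 CPM in the CD63 high samples, and 2.14 and 1.13 CPM in the CD63 low samples. Replicate 1 was the higher library in each group, and the groups overlapped. The log2 fold change was 0.75 (SE 0.56, edgeR adjusted p 0.608), and it was 0.26 without CD63 high replicate 1 and 1.27 without CD63 low replicate 1.

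Ralgapb, 23703 bases after Snhg11, stood at -0.32 (edgeR adjusted p 0.632). Lbp, an acute phase gene 42786 bases before it, had 48 and 20 counts in CD63 high and none in the CD63 low samples, and it rose (edgeR adjusted p 0.029). Gm23925, between Lbp and Snhg11, had 3 and 0 counts in the CD63 high samples, and 3 and 4 counts in the CD63 low samples, and Adig, beyond Ralgapb, had none.

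Other host transcripts of small RNAs had values on the same side. Of 23 listed, 9 were analysed and 7 tested. EdgeR called none, DESeq2 and limma-voom called none, and none had an unadjusted p under 0.05 in edgeR. All 7 log2 fold changes were above 0, from 0.14 to 0.81, with a median of 0.53, while 48.6% of all tested genes were above 0. Snhg12 was at 0.81 (SE 0.54), Snhg10 at 0.64 (SE 0.46) and Snhg6 at 0.60 (SE 0.38), and Snhg20 at 0.14 (SE 0.26). By CPM, with no account of length, Snhg20 was the highest of the 7. It had 16.9 and 15.3 CPM in the CD63 high samples, and 17.1 and 12.2 CPM in the CD63 low samples. With the trend by gene length removed 6 of the 7 were above 0, and without CD63 low replicate 2 it was 5.

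Many host transcripts are removed by nonsense-mediated decay and begin with a pyrimidine tract like translation genes. Of 19 decay factors tested, edgeR, DESeq2 and limma-voom called none, with 1 lower at an unadjusted p under 0.05, 7 of 19 above 0 and a median of -0.12. Of 18 translation genes with such a start, edgeR, DESeq2 and limma-voom called none and 3 were higher at an unadjusted p under 0.05. Their median log2 fold change was 0.31, and 17 of 18 were above 0, beside 48.6% of all tested genes. For the unadjusted p the share of all genes is not given here.

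Of 38 other well known long noncoding RNAs listed, 23 were analysed and 14 tested, and edgeR, DESeq2 and limma-voom called none, also none at an unadjusted p under 0.05 in edgeR. Meg3, a maternally expressed RNA known in beta cells, had 3356 and 2842 counts in the CD63 high samples, and 2739 and 2787 counts in CD63 low replicates (log2 fold change 0.37, SE 0.20, edgeR adjusted p 0.434). Tug1 stood at -0.38 (SE 0.24). The range over the 14 ran from -0.46 to 0.68, with 10 above 0 and a median of 0.17.

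The likeness of profiles was taken as the Euclidean distance between log2 CPM values centred over the 4 libraries, among the 7669 genes whose average log2 CPM was 3 or more. Nearest to Neat1 were Sbno2 (0.15), a gene of the helicase family, Tnfrsf23 (0.23) and Rgs4 (0.24), a regulator of G protein signalling. Rgs4 had 732 and 484 CPM in the CD63 high samples, and 205 and 245 CPM in the CD63 low samples. Nearest to Malat1 were Rnaseh2c (0.11), a subunit of ribonuclease H2, the chemokine gene Ccl28 (0.12) and the tetraspanin gene Cd82 (0.13). Cd82 had 138 and 122 CPM in the CD63 high samples, and 86.4 and 65.5 CPM in the CD63 low samples. Nearest to Kcnq1ot1 were mt-Nd6 (0.17), Tab2 (0.18) and mt-Nd4 (0.19), of which the mitochondrial genes encode subunits of respiratory complex I. Nearest to Snhg11 were the histone demethylase gene Kdm6b (0.21), the NF-kB regulator Nfkbiz (0.23) and the tubulin gene Tubb4a (0.28). Malat1 ranked 233 by nearness to Neat1, at a distance of 0.76, and 30 by nearness to Snhg11, at 0.50. These distances describe 4 libraries only.

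**Figure D4:**
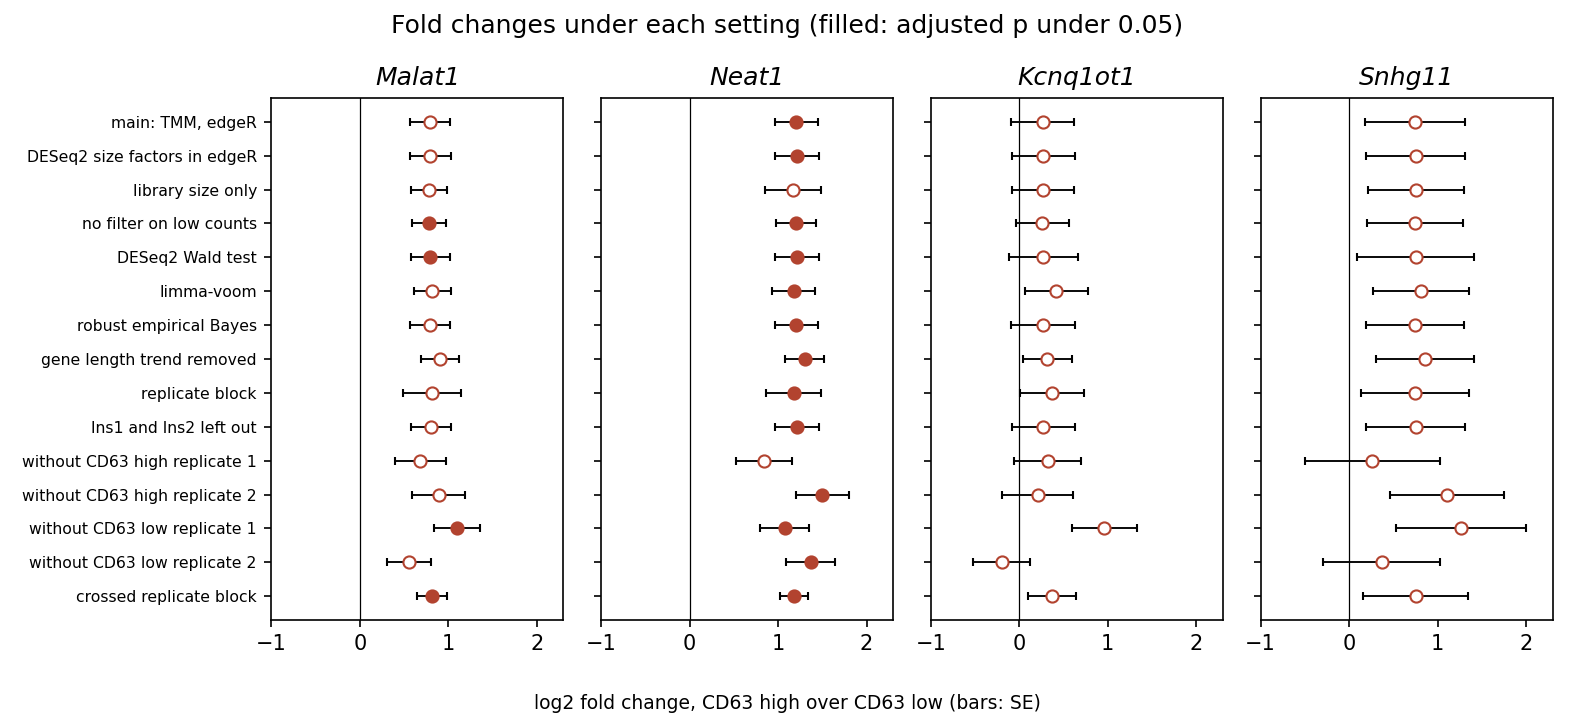
Log2 fold change of CD63 high over CD63 low (points, with SE as bars) for Malat1, Neat1, Kcnq1ot1 and Snhg11 in the main analysis, at the top, and under 14 other settings. Filled points have an adjusted p under 0.05. Neat1 is filled in the main analysis and in 12 of 14 other settings, Malat1 in 4, and Kcnq1ot1 and Snhg11 in none.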

How the data were processed

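Libraries of polyA RNA were prepared with SMARTer v4 and Nextera XT reagents, per the labels' protocols. Each library has a deposited table of raw counts per gene, for which the authors ran featureCounts 1.6.2 on merged alignments, by gene name and on read pairs, with no option for strand, several alignments or overlapping genes, per the file headers. The annotation was that of the Cell Ranger mm10 3.0.0 reference, per the file headers. The submitters' processing notes name STAR 2.6.0c without its role. No molecular identifiers are named, and reads may include PCR copies.

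All counts were used as deposited. In R 4.3.3, filterByExpr from edgeR 4.0.16 kept 13241 genes at a minimum count of 10 and a total of 15. Scaling was by TMM, with factors of 1.03 and 0.947 (CD63 high) and 0.921 and 1.11 (CD63 low), and the test was glmQLFit with glmQLFTest, without covariates. The filter, scaling, a robust fit, a length trend, Ins1 and Ins2, a replicate block and each library were varied. DESeq2 1.42.0 and limma-voom of limma 3.58.1 were also run. The code was tested on simulated data with 1 spread for all genes. There edgeR recovered 16 of 96 genes changed 2-fold and 89 of 99 changed 4-fold, with 7 false calls. A gene not called here may thus have changed 2-fold. Standard errors were derived by dividing each log2 fold change by the root of its F value. TPM used the deposited exonic length. Gene classes and transcripts are from GENCODE M21 and promoters from RefSeq, both on GRCm38, the assembly of mm10. Gene symbols of the tables were matched to GENCODE by name. The members and lists were chosen with earlier results of these data known. Named genes were the 6 members, Cd63, overlapping genes and the 2 nearest on each side, called genes of the lists, and the 3 most alike profiles, and further genes were chosen after their values were seen. A gene that this rule names is not reported here.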

Additional observations from a re-analysis of the deposited data

How the results depend on the processing

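Neat1 was higher in CD63 high cells under all 14 other settings and passed an adjusted p of 0.05 in 12, with adjusted p between 6.11e-06 and 0.184. It did not pass with library size as the only scaling (log2 fold change 1.17), nor without CD63 high replicate 1. Leaving out 1 library gave 0.84 to 1.501 for Neat1, 0.55 to 1.10 for Malat1, -0.20 to 0.96 for Kcnq1ot1 and 0.26 to 1.27 for Snhg11. Malat1 was higher under all 14 settings, with adjusted p between 0.00193 and 0.337. It passed with no filter on low counts (0.79 on the log2 scale), with DESeq2 (0.80), without CD63 low replicate 1, and with the crossed replicate block (0.82), which was chosen after seeing the data. Kcnq1ot1 turned to -0.20 without CD63 low replicate 2 and passed in none of the 14 settings, nor did Snhg11. The causes were not tested. The count of called genes, 369, was 67 with library size only, 940 without a filter, 686 with DESeq2, 450 to 769 without 1 library (769 without CD63 low replicate 1), 616 with the replicate block and 942 with the crossed block. With replicate numbers as a block, Neat1 stood at 1.18 and Malat1 at 0.82, with adjusted p of 0.00575 and 0.198, and no call of the 4 changed. Deviations of same-numbered libraries had a correlation of -0.10 across genes. The titles and the names of the deposited tables number the CD63 low libraries differently, so which libraries share a number is in doubt. By the table names only CD63 high replicate 2 and CD63 low replicate 1 share one, as in the crossed block, and the numbers were not taken to pair the libraries. By CPM in place of TPM the mean ranks among all genes were 27.0 against 156 for Malat1, 983 against 4601 for Neat1, 6280.5 against 12903 for Kcnq1ot1 and 10352 against 11819 for Snhg11. Leaving out 1 library from the log2 ratio to Malat1 gave -0.06 to 0.78 for Neat1, -0.75 to -0.13 for Kcnq1ot1 and -0.38 to 0.25 for Snhg11. Where 1 library was left out, the lone library of its group was assumed to vary like the other group.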
